A study of Homo sapiens with 8 samples.

Results

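Transcripts of genes that cells induce when oxygen is low, other than those of glycolysis, were followed in the NCCIT line of human embryonic carcinoma cells. The 10 genes were chosen by name as known hypoxia response genes, with earlier results of these data known. Counts of them, and of the other lists, beside the shares of all genes are therefore descriptive. They were DDIT4, LOX, ADM, BHLHE40, CA9, BNIP3, EGLN1, EGLN3, KDM3A and NDRG1. Of these, 9 were represented by a group of array probes assigned to 1 gene alone, each by exactly 1 such group, out of 18417 genes in all. CA9, a carbonic anhydrase of the cell surface, had none and was not analysed here. The depleted groups siTET1, siTET2 and siTET3 had been transfected with siRNA that targets the transcript each is named for, and the control group siNTC with a non-targeting siRNA. All groups were grown in the same medium, no hypoxia treatment is named in the labels, and each group had 2 arrays, 8 in all. Per the study's methods each siRNA that targets a TET was a pool of several against 1 transcript. Depletion was transient, so the cells were neither clones nor knockouts.

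Hypoxia-inducible factor (HIF) is a dimer of an alpha subunit, such as HIF1A, with ARNT. Where oxygen is present, the EGLN prolyl hydroxylases modify the alpha subunit, which VHL then binds and marks for destruction, and where oxygen is scarce the alpha subunit accumulates and the dimer binds hypoxia response elements at its target genes. EGLN enzymes, the histone demethylase KDM3A and the TET enzymes, which oxidise methylated cytosine in DNA, all belong to the dioxygenases that use iron and 2-oxoglutarate.

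Hypoxia response elements are built around the core ACGTG or GCGTG, and the promoters of the 5 members that changed at least 1.5-fold in at least 2 of the 3 depletions are shown because they carry this core at different numbers of places. Each run holds the 250 bases before the annotated gene start, 5′ to 3′ on the strand of the gene, from RefSeq on GRCh38.p14. Capitals mark every core on either strand, so that a core on the other strand reads CACGT or CACGC, and CACGTG, the palindrome known as an E-box, holds 1 core on each strand.
DDIT4 (chr10:72273674-72273923, plus strand): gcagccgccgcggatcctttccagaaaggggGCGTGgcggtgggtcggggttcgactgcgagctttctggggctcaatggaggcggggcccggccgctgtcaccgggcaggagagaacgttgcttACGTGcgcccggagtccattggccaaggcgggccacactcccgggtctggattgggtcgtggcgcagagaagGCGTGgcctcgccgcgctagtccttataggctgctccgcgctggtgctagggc
LOX (chr5:122078260-122078509, minus strand): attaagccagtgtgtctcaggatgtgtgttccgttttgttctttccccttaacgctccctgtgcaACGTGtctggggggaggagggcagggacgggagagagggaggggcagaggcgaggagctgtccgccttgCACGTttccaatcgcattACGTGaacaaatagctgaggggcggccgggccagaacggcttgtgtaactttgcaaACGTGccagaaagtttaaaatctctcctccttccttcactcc
BHLHE40 (chr3:4979187-4979436, plus strand): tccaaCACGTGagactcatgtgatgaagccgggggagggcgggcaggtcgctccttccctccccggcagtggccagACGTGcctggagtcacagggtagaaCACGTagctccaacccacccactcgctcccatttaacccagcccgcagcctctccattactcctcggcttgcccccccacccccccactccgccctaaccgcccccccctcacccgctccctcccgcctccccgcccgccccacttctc
BNIP3 (chr10:131981924-131982173, minus strand): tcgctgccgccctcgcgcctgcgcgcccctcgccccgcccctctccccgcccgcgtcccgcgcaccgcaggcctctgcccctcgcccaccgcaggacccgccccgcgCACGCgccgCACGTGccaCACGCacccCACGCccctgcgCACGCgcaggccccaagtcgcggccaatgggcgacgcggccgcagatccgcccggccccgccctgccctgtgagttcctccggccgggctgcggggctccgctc
ADM (chr11:10304823-10305072, plus strand): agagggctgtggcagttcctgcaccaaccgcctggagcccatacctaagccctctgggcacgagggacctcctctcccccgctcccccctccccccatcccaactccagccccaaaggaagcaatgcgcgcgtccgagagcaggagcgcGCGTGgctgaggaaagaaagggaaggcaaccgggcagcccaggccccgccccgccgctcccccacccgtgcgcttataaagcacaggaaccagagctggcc

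In the window of 250 bases before to 50 after the start, the core was present on either strand in 48.4% of all 35116 promoters of the table, and CACGTG in 7.3%. Of the 10 listed genes, 9 were in the table, and 8 of these held the core. BNIP3 held 6 cores, 2 of them within its 1 CACGTG, and 0.9% of promoters held at least as many. DDIT4, LOX and BHLHE40 held 4 each, as 4.4% of promoters did or exceeded, and 2 of those of BHLHE40 lay within its 1 CACGTG. The fourth core of DDIT4 lay 26 to 30 bases into the transcript and is not in the printed run. ADM, CA9, EGLN1 and KDM3A held 1 each, and EGLN3 had no match in this window. LOX had 3 promoters in the table, and the one at the annotated start of the gene was used. KDM3A had 2, both inside the annotated gene, and the one used started 4327 bases downstream of the annotated start, so its count does not describe that start. These are matches of letters and not measured binding sites.

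**Figure D1:**
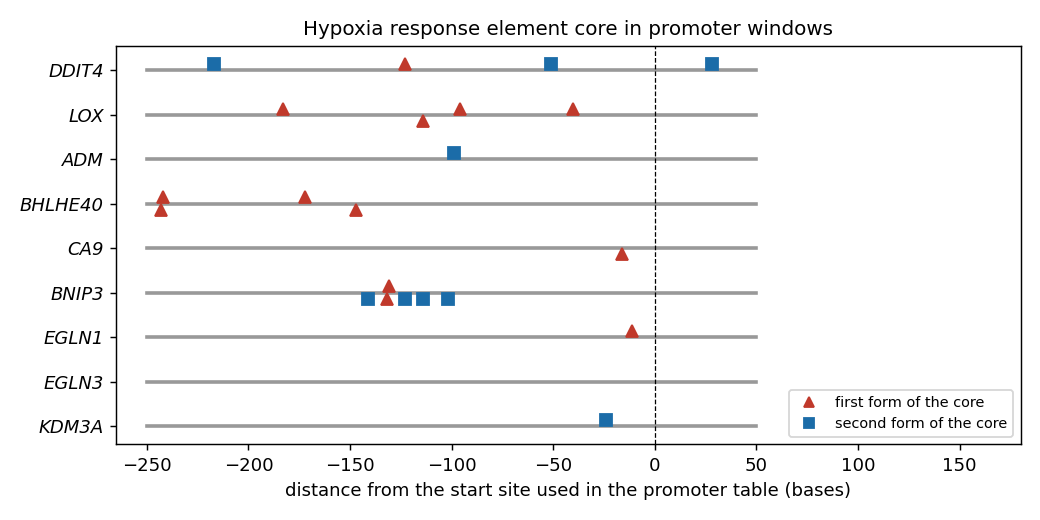
Positions of the hypoxia response element core (horizontal axis, bases from the start site of each window) in the promoter windows of the 9 listed genes in the table. Triangles mark ACGTG and squares GCGTG, above the line on the strand of the gene and below it on the other strand. BNIP3 has 6 cores, DDIT4, LOX and BHLHE40 have 4 each, and EGLN3 has none. The KDM3A window lies 4327 bases inside the annotated gene and the other 8 lie at annotated gene starts.

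Over all genes, correlations between replicate arrays were 0.998 to 0.999, those between depletions 0.995 to 0.998, and those of depletion arrays with siNTC arrays 0.989 to 0.991. Values are log2 intensities, and all 9 members lay above a background of 5.21, set from olfactory receptor genes, on every array. Each siRNA lowered its target: TET1 changed by -0.68 ± 0.048 in siTET1, TET2 by -0.88 ± 0.10 in siTET2 and TET3 by -1.08 ± 0.15 in siTET3 (log2 change ± SE, n = 2 arrays per group). Untargeted TETs moved too on these arrays, since TET1 fell by 0.30 in siTET2 and rose by 0.42 in siTET3, and TET2 fell by 0.47 in siTET3. The paper reports little effect of the depletions on the other TETs, from expression normalized to GAPDH and not from array intensities. The labelled cell type was checked with 8 markers of pluripotent cells, of which 5 were measured and all 5 were above background in all groups, with group means of 10.60 to 12.67. POU5F1, NANOG and TDGF1 were not measured. In siTET1, 2 of the 5 were called higher and 2 lower (40% each, against 15.6% and 18.7% of all genes). In siTET2 and in siTET3, 1 was higher (20%, against 14.4% and 13.8%) and 3 were lower (60%, against 21.8% and 22.3%). Endothelial markers (5 measured) and blood markers (4 measured) were all below background, with highest group means of 4.50 and 4.81, whereas COL1A1 and THY1 of 6 fibroblast markers were above it. Of those 6, 0 were called higher in any depletion. Called lower were 1 in siTET1 (16.7%, against 18.7% of all genes), 1 in siTET2 (16.7%, against 21.8%) and 2 in siTET3 (33.3%, against 22.3%). LUM, 1 of the 2 in siTET3, was below background, and the part of these markers in the results was not tested. A change in bulk RNA cannot be told apart from a change in the share of cells that express a gene.

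The comparison of each depletion with siNTC asked which of these transcripts differed from the control. A difference shared by all 3 depletions cannot be told apart from a trait of the siNTC arrays. In all 3 depletions, DDIT4, LOX, BHLHE40, BNIP3 and KDM3A were higher and ADM was lower than in siNTC. EGLN1 was higher in siTET2 alone among the called values, and EGLN3 and NDRG1 were not called in any depletion. Called means an adjusted p under 0.05 in a fit over all 18417 genes with limma. In siTET1, 5 of the 9 members were higher and 1 was lower, where 15.6% of all genes were called higher and 18.7% lower. In siTET2 the members numbered 6 higher and 1 lower, against 14.4% and 21.8% of all genes. In siTET3 they numbered 5 higher and 1 lower, against 13.8% and 22.3%. The mean of the 3 depletions gave 6 higher and 1 lower, against 16.5% and 24.2%. The median log2 change of the members was 0.24 in siTET1, 0.98 in siTET2 and 0.48 in siTET3, while the median of all genes was -0.031, -0.039 and -0.017 in the same order. The 3 comparisons share the same 2 siNTC arrays. Of these, replicate 1 lay above replicate 2 for all 9 members, by 0.0083 to 0.21 with a median of 0.11, as it did for 59.3% of all genes, with a median of 0.025.

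**Figure D2:**
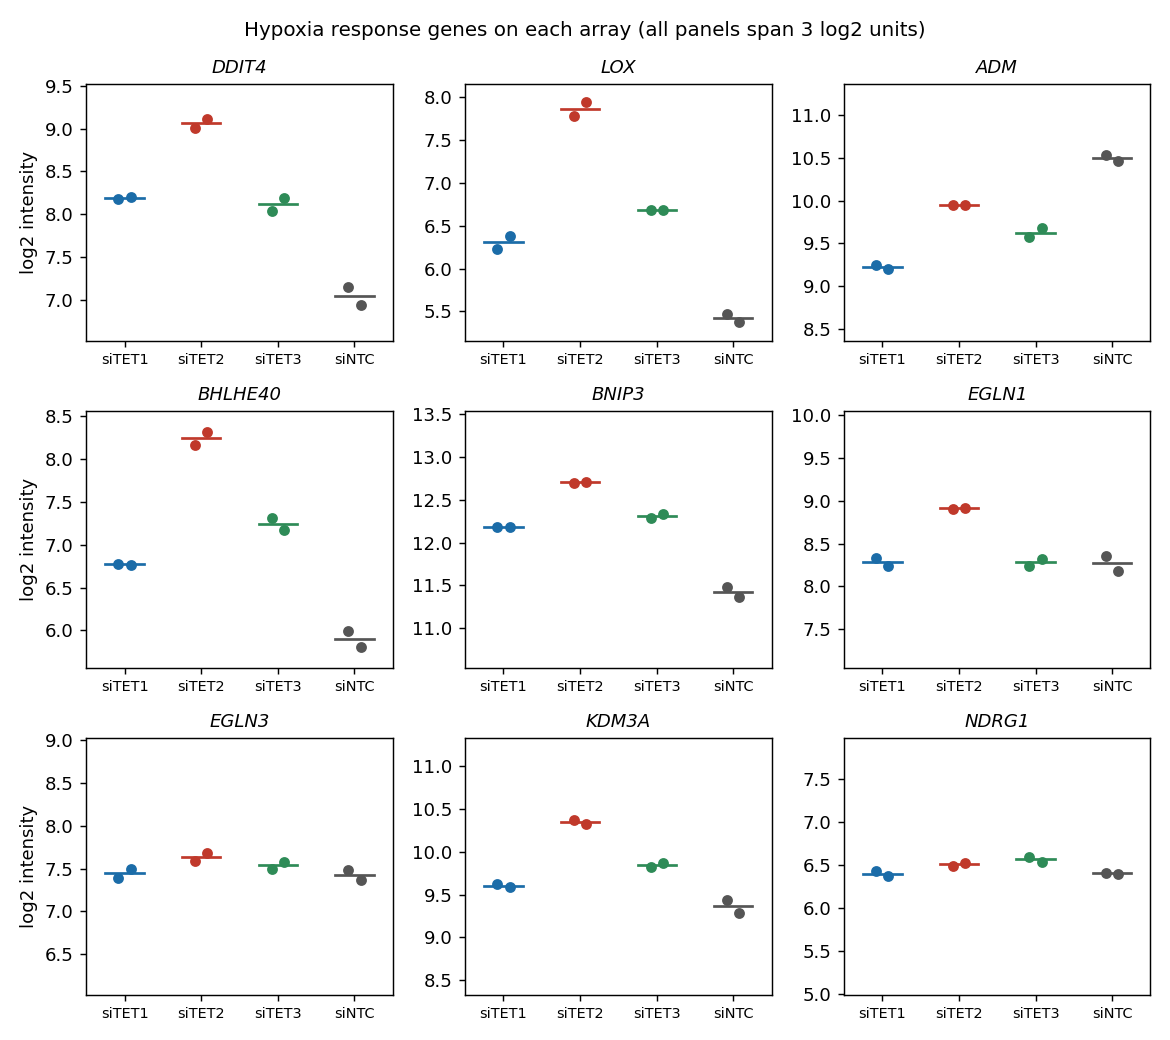
Log2 intensity (vertical axes) of the 9 measured genes on each array of siTET1, siTET2, siTET3 and siNTC (points, with bars at the group means). All panels span 3 log2 units. The siNTC arrays lie below all depletion arrays for DDIT4, LOX, BHLHE40, BNIP3 and KDM3A and above them for ADM.

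**Figure D3:**
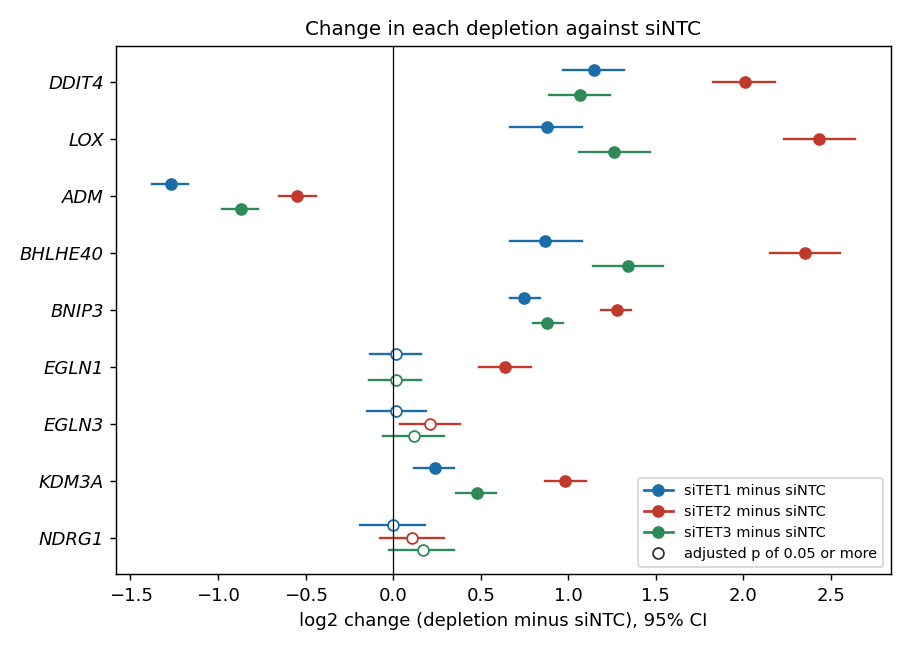
Log2 change of each gene (horizontal axis) in siTET1, siTET2 and siTET3 relative to siNTC, with 95% confidence intervals from the fit. Open points were not called. LOX and BHLHE40 reach 2.43 and 2.35 in siTET2, and ADM lies at -1.27 in siTET1.

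Of the EGLN prolyl hydroxylases among the members, EGLN1 was called against siNTC in siTET2 alone among the single depletions, and EGLN3 in none of them. EGLN1 (PHD2), the main HIF prolyl hydroxylase and itself a HIF target, was at 8.33 and 8.24 in siTET1, 8.90 and 8.92 in siTET2, 8.24 and 8.32 in siTET3, against 8.36 and 8.18 in siNTC. Both siTET2 arrays lay above the other 6, and those 6 overlapped. The change was 0.64 ± 0.069 in siTET2 (1.56-fold, adjusted p = 9.02e-06). It was 0.016 in siTET1 (95% CI -0.13 to 0.16, adjusted p = 0.896) and 0.014 in siTET3 (-0.14 to 0.16, adjusted p = 0.897), intervals that leave room for small changes either way. Its mean over the depletions was called (0.22, adjusted p = 0.00596), but not without siNTC replicate 2 (0.13, adjusted p = 0.133).

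EGLN3 (PHD3), a paralog of EGLN1 that is strongly hypoxia-inducible in many cells, was at 7.39 and 7.50 in siTET1, 7.59 and 7.68 in siTET2, 7.50 and 7.58 in siTET3, against 7.48 and 7.37 in siNTC. Its siTET2 arrays were above the other 6, with the lower of them only just above the higher siTET3 array. The change was 0.019 in siTET1 (adjusted p = 0.89), 0.21 in siTET2 (95% CI 0.037 to 0.38, adjusted p = 0.0561) and 0.12 in siTET3 (adjusted p = 0.285). The siTET2 value was past the threshold without siTET3 replicate 1 (adjusted p = 0.0439) or replicate 2 (0.0441), at an unchanged 0.21, and with quantile normalization (0.26, adjusted p = 0.0112). Under quantile normalization its siTET3 change was also past it (0.22, adjusted p = 0.0283).

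Of the members that limit growth or act on mitochondria, DDIT4 (REDD1) inhibits mTORC1, the kinase complex that drives protein synthesis. It was at 8.18 and 8.20 in siTET1, 9.01 and 9.11 in siTET2, 8.04 and 8.19 in siTET3, against 7.15 and 6.94 in siNTC. The 2 siTET2 arrays were highest, the siTET1 and siTET3 arrays overlapped, and the siNTC arrays were below all of them. DDIT4 rose by 1.15 ± 0.081 in siTET1 (2.21-fold, adjusted p = 2.87e-07), 2.01 ± 0.081 in siTET2 (4.03-fold, adjusted p = 2.00e-09) and 1.07 ± 0.081 in siTET3 (2.09-fold, adjusted p = 4.55e-07).

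BNIP3, a mitochondrial protein that recruits the autophagy machinery, had the brightest signal of the measured members. It was at 12.18 and 12.18 in siTET1, 12.70 and 12.71 in siTET2, 12.29 and 12.34 in siTET3, against 11.48 and 11.37 in siNTC, and no 2 groups overlapped. The rise was 0.75 ± 0.038 in siTET1 (1.69-fold, adjusted p = 1.85e-08), 1.28 ± 0.038 in siTET2 (2.42-fold, adjusted p = 1.43e-10) and 0.88 ± 0.038 in siTET3 (1.85-fold, adjusted p = 5.61e-09).

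Of the members that act in the nucleus, BHLHE40 (DEC1) is a transcriptional repressor that binds E-boxes and limits the clock. It was at 6.78 and 6.77 in siTET1, 8.17 and 8.32 in siTET2, 7.31 and 7.17 in siTET3, against 5.99 and 5.81 in siNTC. The 4 groups were fully separate, with siTET2 highest. BHLHE40 rose by 0.87 ± 0.093 in siTET1 (1.83-fold, adjusted p = 9.33e-06), 2.35 ± 0.093 in siTET2 (5.09-fold, adjusted p = 1.77e-09) and 1.34 ± 0.093 in siTET3 (2.53-fold, adjusted p = 2.27e-07).

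KDM3A (JMJD1A) removes methyl groups from lysine 9 of histone H3. It was at 9.62 and 9.59 in siTET1, 10.37 and 10.32 in siTET2, 9.82 and 9.87 in siTET3, against 9.44 and 9.29 in siNTC. The groups did not overlap, although siTET1 lay only just above siNTC. KDM3A rose by 0.24 ± 0.053 in siTET1 (1.18-fold, adjusted p = 0.00339), 0.98 ± 0.053 in siTET2 (1.98-fold, adjusted p = 2.51e-08) and 0.48 ± 0.053 in siTET3 (1.39-fold, adjusted p = 1.35e-05).

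Of the secreted products, LOX, the enzyme that cross-links collagen and elastin, had the widest span of group means, 2.43. It was at 6.23 and 6.38 in siTET1, 7.78 and 7.94 in siTET2, 6.69 and 6.68 in siTET3, against 5.47 and 5.38 in siNTC, where it lay close to background. All 4 groups were separate. LOX rose by 0.88 ± 0.095 in siTET1 (1.84-fold, adjusted p = 1.10e-05), 2.43 ± 0.095 in siTET2 (5.4-fold, adjusted p = 1.61e-09) and 1.26 ± 0.095 in siTET3 (2.4-fold, adjusted p = 4.30e-07).

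ADM, the precursor of the vasodilator peptide adrenomedullin, ran the other way. It was at 9.25 and 9.20 in siTET1, 9.95 and 9.95 in siTET2, 9.57 and 9.68 in siTET3, against 10.53 and 10.46 in siNTC. Every depletion array was below both siNTC arrays, and siTET1 was lowest. ADM changed by -1.27 ± 0.049 in siTET1 (to 41.4% of siNTC, adjusted p = 2.05e-09), -0.55 ± 0.049 in siTET2 (to 68.4%, adjusted p = 1.99e-06) and -0.87 ± 0.049 in siTET3 (to 54.6%, adjusted p = 4.45e-08).

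NDRG1, a cytoplasmic protein widely induced by hypoxia and differentiation, was at 6.43 and 6.37 in siTET1, 6.49 and 6.53 in siTET2, 6.60 and 6.54 in siTET3, against 6.41 and 6.40 in siNTC. The siTET2 and siTET3 arrays were above both siNTC arrays, by small margins. Its change was -0.0021 in siTET1 (95% CI -0.19 to 0.18, adjusted p = 0.991), 0.11 in siTET2 (-0.077 to 0.29, adjusted p = 0.374) and 0.17 in siTET3 (-0.021 to 0.35, adjusted p = 0.159).

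The depletions were then compared with each other, which does not use the siNTC arrays in the contrast. Between siTET2 and siTET1, 7 of the 9 members were higher in siTET2 and 0 lower, where 2.33% of all genes were called higher and 4.13% lower. By size, LOX (1.56 ± 0.095, adjusted p = 1.59e-06) and BHLHE40 (1.47 ± 0.093, adjusted p = 2.06e-06) led. DDIT4 differed by 0.86, KDM3A by 0.74, ADM by 0.73, EGLN1 by 0.62 and BNIP3 by 0.52, with adjusted p-values between 4.78e-06 and 2.25e-04. For ADM the higher value in siTET2 lies nearer to siNTC, whereas for the other 6 it lies farther from it. EGLN3 (0.19, 95% CI 0.019 to 0.36, adjusted p = 0.205) and NDRG1 (0.11, -0.075 to 0.30, adjusted p = 0.589) were not called.

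Between siTET3 and siTET2, the same 7 genes were lower in siTET3 and 0 of the members were higher, where 7.24% of all genes were called lower and 4.94% higher. LOX differed by -1.17 ± 0.095 (adjusted p = 1.16e-05), BHLHE40 by -1.01 ± 0.093 (2.90e-05) and DDIT4 by -0.94 ± 0.081 (1.63e-05). EGLN1 differed by -0.62, KDM3A by -0.51, BNIP3 by -0.39 and ADM by -0.32. The siTET2 arrays were above the 6 other arrays for DDIT4, LOX, BHLHE40, BNIP3, EGLN1, EGLN3 and KDM3A, for EGLN3 only just. How many of all genes had such a separation was not counted, so it is described for single genes only. EGLN3 (-0.092, 95% CI -0.26 to 0.078, adjusted p = 0.532) and NDRG1 (0.056, -0.13 to 0.24, adjusted p = 0.755) were not called.

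Between siTET3 and siTET1 the differences were smaller. There 5 of the 9 members were higher in siTET3 and 0 lower, where 3.82% of all genes were called higher and 9.94% lower. They were BHLHE40 (0.47 ± 0.093, adjusted p = 0.0052), ADM (0.40 ± 0.049, 2.28e-04), LOX (0.39 ± 0.095, 0.0177), KDM3A (0.24 ± 0.053, 0.0109) and BNIP3 (0.13 ± 0.038, 0.0383). The call of LOX was lost without siTET1 replicate 1 (0.31, adjusted p = 0.147) or siTET3 replicate 1 (0.38, adjusted p = 0.0624). That of KDM3A was lost without siTET1 replicate 1 (0.25, adjusted p = 0.0505) or replicate 2 (0.22, adjusted p = 0.0959). BNIP3 lost its call without any 1 of the 6 depletion arrays, with adjusted p-values of 0.0595 to 0.177. DDIT4 (-0.081, 95% CI -0.26 to 0.093, adjusted p = 0.564) and EGLN1 (-0.0016, -0.15 to 0.15, adjusted p = 0.992) were not called, and neither were EGLN3 (0.10) and NDRG1 (0.17).

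**Figure D4:**
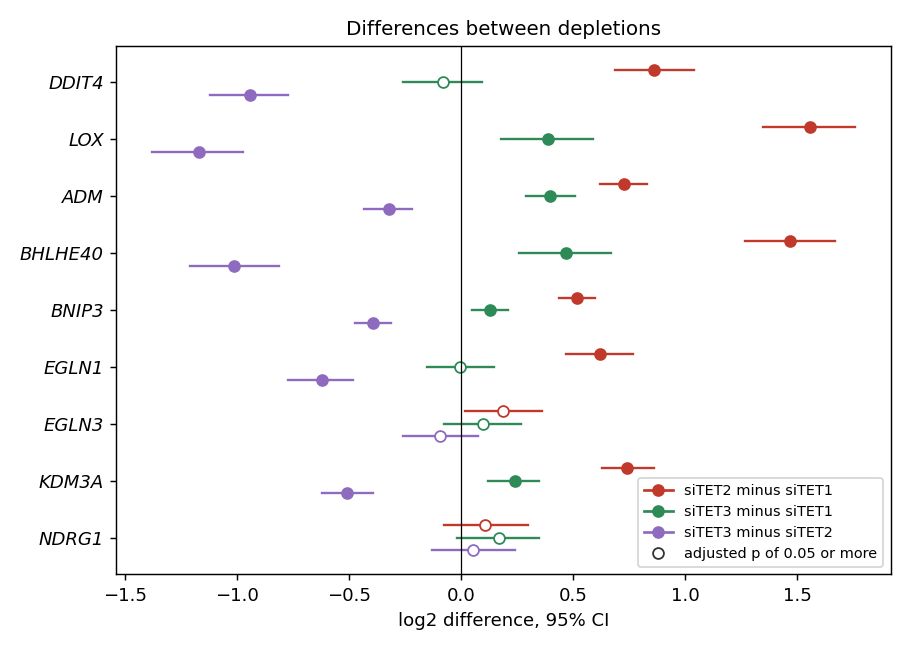
Log2 difference of each gene (horizontal axis) for siTET2 minus siTET1, siTET3 minus siTET1 and siTET3 minus siTET2, with 95% confidence intervals from the fit. Open points were not called. LOX differs by 1.56 between siTET2 and siTET1 and by -1.17 between siTET3 and siTET2.

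Ordered by group mean, LOX, BHLHE40, BNIP3 and KDM3A ran siTET2, siTET3, siTET1 and siNTC from high to low, and every step of that order was called, but the step between siTET3 and siTET1 lost its call without certain arrays for LOX, BNIP3 and KDM3A, and without the intensity trend for BNIP3 (adjusted p = 0.212) and KDM3A (adjusted p = 0.0717). DDIT4 had siTET2 first and siNTC last, and its siTET1 mean of 8.19 and siTET3 mean of 8.11 did not differ beyond their spread. ADM ran siTET1, siTET3, siTET2 and siNTC from low to high, at means of 9.22, 9.62, 9.95 and 10.50, with every step called. For EGLN1 only the step below siTET2 was called. No neighbouring steps were called for EGLN3 or NDRG1.

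Of the machinery that sets HIF activity, 18 of 19 listed genes were measured. In siTET1, 3 were higher (16.7%, against 15.6% of all genes) and 8 lower (44.4%, against 18.7%). In siTET2, 2 were higher (11.1%, against 14.4%) and 7 lower (38.9%, against 21.8%), and in siTET3, 2 were higher (11.1%, against 13.8%) and 9 lower (50%, against 22.3%). The shares of higher genes were thus close to those of all genes. ELOB (elongin B), a subunit of the ubiquitin ligase of VHL, changed by -0.61 in siTET1, -0.46 in siTET2 and -0.90 in siTET3, and RBX1, the RING subunit of that ligase, by -0.26, -0.28 and -0.43. VHL itself rose by 0.47, 0.36 and 0.35 in the same order. OS9, an endoplasmic reticulum lectin also reported to bind HIF1A and the EGLN enzymes, changed by -0.51, -0.78 and -0.74. All of these were called. HIF1A, named here after its values were seen, was called higher in siTET1, siTET2 and siTET3, at 0.25, 0.18 and 0.22. In siTET2 relative to siTET1, 0 of the 18 were higher and 1 lower (5.56%, against 4.13% of all genes). In siTET3, 0 were higher and 3 lower (16.7%) relative to each of siTET1 and siTET2, against 9.94% and 7.24% of all genes lower.

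Other hypoxia-inducible genes outside glycolysis were counted from a list of 41, of which 39 were measured. In siTET1, 18 were higher (46.2%, against 15.6% of all genes), 3 lower (7.69%, against 18.7%) and 18 not called. TMEM45A, 1 of the 18 higher, was below background in both groups. In siTET2 and siTET3, where TMEM45A was also counted as higher, it was below background in siNTC only. The same held for PPFIA4, counted as higher in siTET1, siTET2 and siTET3. In siTET2, 27 were higher (69.2%, against 14.4%) and 2 lower (5.13%, against 21.8%). In siTET3, 19 were higher (48.7%, against 13.8%) and 4 lower (10.3%, against 22.3%). Medians were 0.12, 0.45 and 0.25 in that order, beside medians of all genes between -0.039 and -0.017. BHLHE41 (DEC2), the paralog of BHLHE40, rose by 0.62, 1.71 and 1.13 in siTET1, siTET2 and siTET3. It was at 6.68 and 6.64 in siTET1, 7.75 and 7.75 in siTET2, 7.20 and 7.12 in siTET3, against 5.98 and 6.09 in siNTC, so its 4 groups were separate. The ephrin EFNA3 rose by 0.94, 1.40 and 0.96, the collagen prolyl hydroxylase subunit P4HA2 by 0.69, 1.16 and 0.88, and the lipid droplet protein HILPDA by 0.62, 1.28 and 0.76.

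The list also separated the depletions from each other. Relative to siTET1, siTET2 had 19 of the 39 higher (48.7%, against 2.33% of all genes) and 1 lower (2.56%, against 4.13%), with a median of 0.28. siTET3 had 5 higher (12.8%, against 3.82% of all genes) and 1 lower (2.56%, against 9.94%) relative to siTET1. Relative to siTET2 it had 1 higher (2.56%, against 4.94%) and 21 lower (53.8%, against 7.24%), with a median of -0.28. The glycoprotein hormone STC2 was at 7.98 and 8.02 in siTET1, 9.18 and 9.17 in siTET2, 8.24 and 8.26 in siTET3, against 8.26 and 8.03 in siNTC. It rose in siTET2 (1.03) and was not called in siTET1 (-0.15) or siTET3 (0.11), and siTET2 exceeded siTET1 by 1.17. The chemokine receptor CXCR4 had the same pattern of calls, with 1.01 in siTET2, -0.02 in siTET1 and -0.29 in siTET3, and differed by -1.30 between siTET3 and siTET2. Like EGLN1, both genes were therefore called against siNTC in siTET2 only, with the difference from siTET1 itself past the test.

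**Figure D5:**
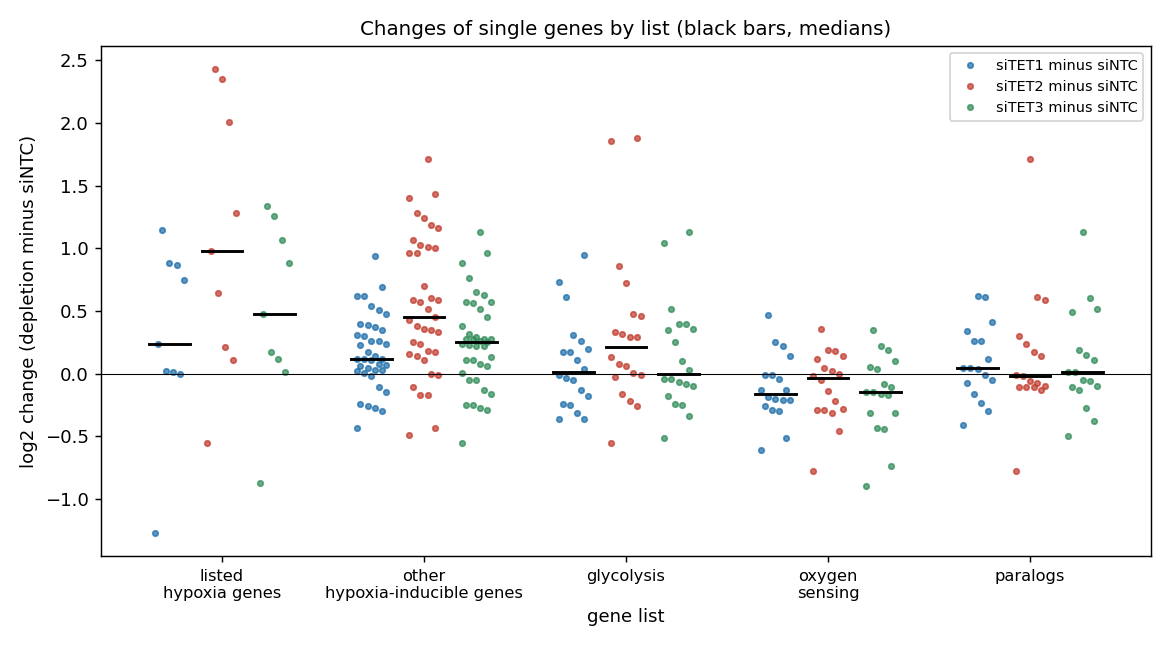
Log2 change relative to siNTC (vertical axis) of each gene in 5 lists (horizontal axis) in siTET1, siTET2 and siTET3, with black bars at the medians. The 9 measured members have medians of 0.24, 0.98 and 0.48 and the 39 other hypoxia-inducible genes 0.12, 0.45 and 0.25. BHLHE41, BNIP3L, LOXL2 and CA12 are in both the list of other hypoxia-inducible genes and that of paralogs.

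Of 19 listed paralogs of the members, 17 were measured. In siTET1, 5 were higher (29.4%, against 15.6% of all genes) and 1 lower (5.88%, against 18.7%). In siTET2, 7 were higher (41.2%, against 14.4%) and 1 lower (5.88%, against 21.8%). In siTET3, 4 were higher (23.5%, against 13.8%) and 2 lower (11.8%, against 22.3%). BNIP3L (NIX), the paralog of BNIP3, rose by 0.26, 0.59 and 0.52. NDRG4 rose by 0.61 in siTET1, 0.61 in siTET2 and 0.60 in siTET3, unlike NDRG1, which was not called. NDRG3 rose by 0.34 in siTET1 and 0.14 in siTET2 and was not called in siTET3 (-0.10). The membrane carbonic anhydrase CA14, a paralog of CA9, changed by -0.41, -0.78 and -0.38, all called.

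Partners of the members, direct or in the same pathway, include the receptor of adrenomedullin and a substrate of mTORC1. Of 29 listed, 27 were measured. In siTET1, 5 were higher (18.5%, against 15.6% of all genes) and 10 lower (37%, against 18.7%). In siTET2, 6 were higher (22.2%, against 14.4%) and 7 lower (25.9%, against 21.8%), and in siTET3, 3 were higher (11.1%, against 13.8%) and 8 lower (29.6%, against 22.3%). Most of these shares lay near those of all genes, so the counts are no result about the partners as a group. EIF4EBP1, the translational repressor that mTORC1 phosphorylates, changed by -0.51, -0.55 and -0.50. GABARAPL1, an autophagy protein of the family that BNIP3 binds, changed by -0.49, -0.51 and -0.63. CLOCK, a subunit of the clock activator whose E-boxes BHLHE40 shares, rose by 0.23, 0.24 and 0.66, and SLC4A7, a bicarbonate transporter, by 0.35, 0.49 and 0.56. The adrenomedullin receptor CALCRL lay below background on all 8 arrays, at 5.04 and 5.12 in siTET1, 4.97 and 4.90 in siTET2, 4.46 and 4.80 in siTET3, against 4.80 and 4.68 in siNTC, so its values carry no level here, although its siTET1 change (0.34, adjusted p = 0.0348) is 1 of the 5 counted as higher.

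DDIT4 also responds to amino acid and unfolded protein stress, so genes of that response were set beside it. Of 13 measured, 1 was higher and 7 lower in siTET1, 1 higher and 7 lower in siTET2, and 0 higher and 7 lower in siTET3. The share lower was 53.8% each time, against 18.7%, 21.8% and 22.3% of all genes in the same order. The share higher was 7.69%, 7.69% and 0%, against 15.6%, 14.4% and 13.8%. CHAC1, a glutathione-degrading enzyme of that response, changed by -1.56 in siTET1, -1.28 in siTET2 and -1.28 in siTET3. ASNS, asparagine synthetase, changed by -0.42, -0.61 and -0.39, and the transcription factor XBP1 by -0.53, -0.58 and -0.20. TRIB3, a pseudokinase, changed by -0.46, -0.52 and -0.39. Its levels ran from 5.94 on siNTC replicate 1 down to 5.07 on siTET2 replicate 2, below the background of 5.21. PPP1R15A (GADD34) rose by 0.27 in siTET1 and 0.63 in siTET2 and was not called in siTET3 (0.059). The lipoprotein receptor VLDLR was called in siTET1 alone (-0.36), with 0.14 in siTET2 and 0.036 in siTET3. The lower members of this list moved opposite to DDIT4, and whether the same process acted on both was not tested.

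Glycolysis genes, 20 measured of 22, numbered 8 higher (40%, against 15.6% of all genes) and 6 lower (30%, against 18.7%) in siTET1. In siTET2, 11 were higher (55%, against 14.4%) and 4 lower (20%, against 21.8%), and in siTET3, 8 were higher (40%, against 13.8%) and 6 lower (30%, against 22.3%). The medians of the list were 0.015 in siTET1, 0.21 in siTET2 and -0.0061 in siTET3, beside -0.031, -0.039 and -0.017 for all genes. The genes named next were picked by size of change and all rose. PFKFB3, the regulatory enzyme that makes fructose 2,6-bisphosphate, rose by 0.73, 1.86 and 1.13, the same order of the depletions as for BHLHE40. PFKFB4 rose by 0.95, 1.88 and 1.04, and hexokinase HK2 by 0.26, 0.86 and 0.40. The enolase ENO2 rose by 0.61, 0.46 and 0.40, with siTET1 first.

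LOX, the member with the widest span, was used to find genes of similar pattern among the 309 genes above background whose group means spanned at least 1 log2 unit. Over the 8 arrays, which form 4 pairs of replicates, OR5P2 (r = 0.998), BHLHE40 (0.996), CCNG2 (0.996), SNORA3A (0.994) and OVGP1 (0.994) were closest. BHLHE40 is a member, and DDIT4 (0.965) and BNIP3 (0.956) ranked 19 and 24, while ADM ranked 141 at -0.288. KDM3A, EGLN1, EGLN3 and NDRG1 spanned less than 1 log2 unit and so were not among the 309. Their correlations with LOX were 0.98, 0.85, 0.84 and 0.61. CCNG2, cyclin G2, was at 6.75 and 6.69 in siTET1, 7.35 and 7.42 in siTET2, 6.87 and 6.85 in siTET3, against 6.36 and 6.36 in siNTC. The siNTC values of OR5P2, an olfactory receptor, were 4.69 and 4.64, below background. These correlations describe shared group differences and were not tested.

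Genes around the members were examined as well. The median change of the 20 genes above background that flanked DDIT4, 10 on each side, was 0.072 in siTET1, 0.026 in siTET2 and 0.068 in siTET3, beside 1.15, 2.01 and 1.07 for DDIT4. For LOX the flanking medians were 0.11, 0.048 and -0.038, and for ADM 0.049, 0.017 and -0.054. For BHLHE40, which had 16 such flanking genes, they were 0.011, 0.02 and -0.048, and for BNIP3 0.034, -0.0056 and -0.0059. For KDM3A the flanking median in siTET1 was 0.18, beside 0.24 for KDM3A itself, whereas in siTET2 it was 0.082 beside 0.98 for KDM3A. These are medians over genes that can move either way, and the changes of single flanking genes were not compared.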

How the data were processed

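Biotin-labelled cDNA from 8 NCCIT samples was read on Affymetrix Human Gene 1.0 ST arrays. The authors deposited log2 intensities, already normalized across arrays. The submitters' processing notes name Partek. Its version, how background was corrected and the genome build were not given in the sources used here. Of 33297 probe groups, 19460 had 1 gene symbol, 1754 several and 12083 none. Only groups with 1 symbol were used, the brightest of them where a gene had several (769 genes). Background was the 95th percentile of 341 olfactory receptor genes, and 12749 genes (69.2%) lay above it.

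A model of the 4 group means over the 8 arrays was fitted in R 4.3.3 using limma 3.58.1 and its intensity trend (residual degrees of freedom 4, prior 8.55), two-sided, with Benjamini-Hochberg adjustment over 18417 genes. Nothing in the labels names separate cultures, so p-values reflect the spread between arrays only, and the number of arrays limits the precision. Members, lists and tests were chosen with earlier results of these data known. Named were all members, up to 4 called genes of each list by the mean of the depletions and up to 2 by differences between depletions, and the 5 genes most like the member of widest span. Alternatives were quantile normalization, median centring, the compared arrays alone, no trend, genes above background, the mean of probe groups, a replicate block, left-out arrays, a 1.5-fold threshold and a promoter window of 250 rather than 300 bases, in which 43.2% of promoters held the core. Gene names and order came from RefSeq (GRCh38.p14), and figures from matplotlib 3.10.9 in Python 3.11.15.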

Additional observations from a re-analysis of the deposited data

Results flagged for a closer look

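The values of the members in 2 depletions differed past the test of the difference itself in 19 cases. In siTET2 relative to siTET1 these were LOX (1.56), BHLHE40 (1.47), DDIT4 (0.86), KDM3A (0.74), ADM (0.73), EGLN1 (0.62) and BNIP3 (0.52). In siTET3 relative to siTET2 they were LOX (-1.17), BHLHE40 (-1.01), DDIT4 (-0.94), EGLN1 (-0.62), KDM3A (-0.51), BNIP3 (-0.39) and ADM (-0.32). In siTET3 relative to siTET1 they were BHLHE40 (0.47), ADM (0.40), LOX (0.39), KDM3A (0.24) and BNIP3 (0.13). All are log2 differences. With 2 arrays per group, no group was large enough to be screened for single outlying arrays.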

How the results depend on the processing

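Of 945 member values recomputed under the alternatives, 910 kept their direction and their side of the threshold, 14 lost their call, 8 gained one, 13 that were not called changed sign, and 0 called values reversed. In siTET3 relative to siTET1 the 5 called members became 3 without the intensity trend, 0 with at least a 1.5-fold change, and 2 to 5 as each array was left out (2 without siTET1 replicate 1, and 3 without siTET1 replicate 2 or siTET3 replicate 1). In siTET3 relative to siTET2 the 7 became 4 with at least a 1.5-fold change. Against siNTC, the mean of EGLN1 over the depletions lost its call when the arrays were compared as 2 groups (0.22, adjusted p = 0.413), and EGLN3 gained one in siTET2 with median centring (adjusted p = 0.0281), with only the arrays compared (0.0483) or with only genes above background (0.0489). The labels do not say whether same-numbered arrays were handled together. Their deviations correlated at 0.24 for siTET1 with siTET3 and at -0.04 to 0.03 for the others, which cannot settle whether the samples were paired. With a replicate block, 6 members were called in siTET1, 7 in siTET2 and 6 in siTET3 relative to siNTC, 7 in siTET2 and 5 in siTET3 relative to siTET1, and 7 in siTET3 relative to siTET2, the same counts as without it.

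Over all genes, calls numbered 1189 in siTET2 relative to siTET1, but 223 without the trend, 2370 with the compared arrays alone and 248 to 1615 as arrays were left out, with 248 to 333 without any 1 of the siTET1 or siTET2 arrays. For siTET3 relative to siTET1 they numbered 2534, but 1287 without the trend, 1294 and 1008 without siTET1 replicate 1 and 2, and 1552 without siTET3 replicate 1. For siTET3 relative to siTET2 they numbered 2244, but 1018 without the trend and 887 and 817 without siTET2 replicate 1 and 2. The share of lower genes among the called was 63.9% in siTET2 relative to siTET1 (45.9% with median centring, 46.1% with quantile normalization), 72.2% in siTET3 relative to siTET1 (44.9%, 53.4%), and 59.4% in siTET3 relative to siTET2 (45.1% with median centring). Against siNTC it was 61.9% in siTET3 (51.4%, 49.5%) and 60.1% in siTET2 (49.6% with quantile normalization).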
